A study of Mus musculus with 18 samples.

Results

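The colon of WT mice treated with azoxymethane and dextran sulfate sodium was compared with the colon of WT mice that had recovered from DSS-induced colitis. Azoxymethane (AOM) is a carcinogen that alkylates DNA, and DSS is a polymer given to mice to injure the colonic epithelium. Mice given both develop colitis-associated cancer (CAC), whereas mice allowed to recover from DSS alone repair the mucosa. The labels gave 1 AOM dose of 10 mg/kg and 3 cycles of 2.5% (w/v) DSS. That protocol text stood on every sample, so group membership came from the treatment label, and the DSS dose and recovery time of the recovery mice were not analysed here. All mice were on a C57BL/6 background and neither group carried a transgene or a deletion. Ages were not given in the sources used here. The groups held 3 libraries each, 6 of the 18 libraries of the series, and their titles carry different sample numbers. The study describes the RNA-Seq groups as 3 mice each, and p-values measure the spread between these libraries. The labels name the tissue only as colon, and the study's results text places the recovery libraries in the distal colon.

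RNA-Seq reads were summed over 2 sequencing lanes and totalled 17.9 to 26 M reads per library. Levels are read counts scaled to the library size (CPM) with TMM scaling over the 6 libraries, and a log2 fold change is AOM/DSS against recovery, so that a positive value is higher in AOM/DSS. A bare value in parentheses after a gene is its log2 fold change. Where a count or call is given without a named library, that library alone was left out of the fit. Of 15522 genes tested, edgeR called 2322 at an adjusted p under 0.05, which is 15% (1106 higher, 7.13%, and 1216 lower, 7.83%). The count was 972, 1180 and 1545 without recovery replicates 3, 1 and 2 and 1170 without AOM/DSS replicate 2. The median log2 fold change over all genes was 0.03. The groups did not overlap in CPM for 39.1% of all genes tested and for 2315 of the called genes. The first principal component separated the groups and held 66.4% of the variance, and the second, with 16.5%, separated AOM/DSS replicate 3 (score 47.0) from AOM/DSS replicates 1 and 2 (-44.1 and -20.3).

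Facts about the libraries bear on every result. Mitochondrial transcripts took 7.93, 8.22 and 9.55% of the reads in recovery and 7.03, 5.51 and 3.95% in AOM/DSS, and the 20 most abundant genes took 17.6 to 20.2% and 9.51 to 13.6% (exact permutation p 0.1 for each, two-sided, the smallest that 3 against 3 allows). *Xist*, the transcript of the inactive X chromosome, stood at 837 and 1720 CPM in recovery replicates 2 and 3 and at most at 1.15 CPM in the other 4 libraries, so sex and treatment were not balanced. As a check of the tissue, the mucin gene *Muc2* and the colonocyte gene *Car1* were read in every library, with at least 856 and 99.8 CPM. The small intestinal genes *Fabp1* and *Apoa4*, which encode lipid carriers, reached at most 2.22 and 1.17 CPM, whereas other genes of the small intestine or ileum were high in recovery and low in AOM/DSS, namely *Fabp2* (476 to 2104 against 6.3 to 32.4 CPM), *Sis* (29.1 to 180.2 against at most 0.144 CPM) and *Slc10a2* (909.9 to 1396 against 4.04 to 12 CPM). *Hoxb13* and *Hoxd13*, which mark the caudal end of the gut, were at or near 0 in every recovery library and high in every AOM/DSS library. Posterior *Hox* expression and treatment therefore could not be told apart within the 6 libraries, and this touches every fold change below. Both genes were at or near 0 in the libraries described as distal colon. The labels do not state the segment taken from either group, and a difference in segment between the groups was not tested.

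Each gene list below is given as the number of its tested members called in each direction, beside the shares over all genes just given. In bulk tissue, fewer cells of a type and less RNA per cell cannot be told apart. The plot of list members shows the lists together, without the sex-linked genes and the genes from the study's topics.

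**Figure D1:**
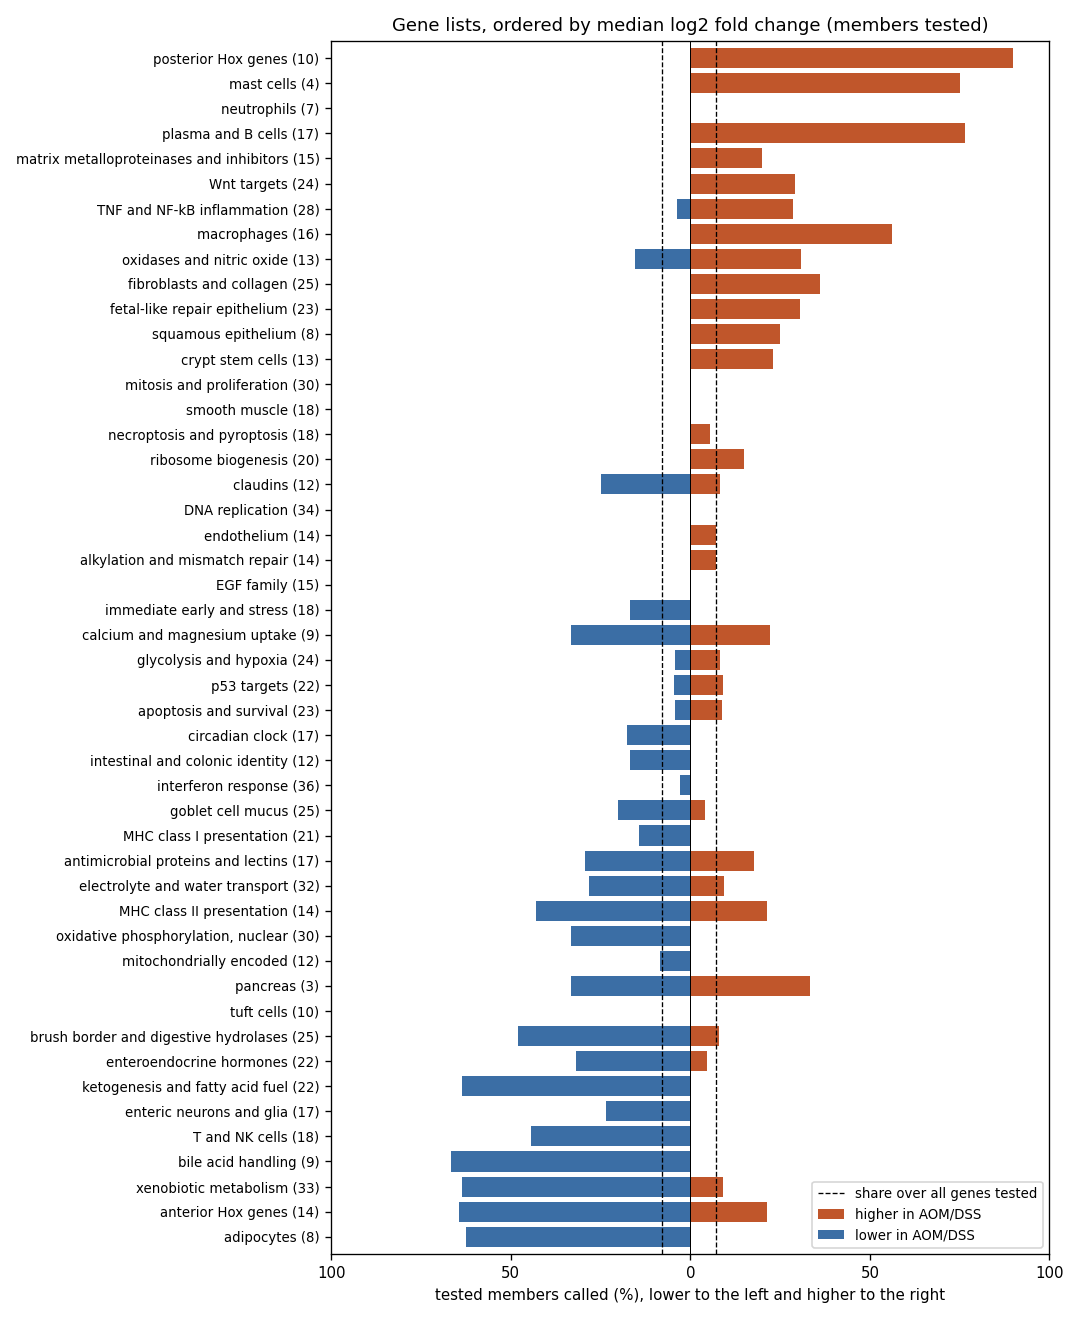
Share of the tested members of each gene list that edgeR called at an adjusted p under 0.05, higher in AOM/DSS to the right and lower to the left, in % (n = 3 libraries per group; the number tested stands in parentheses). The dashed lines mark the shares over all genes tested, 7.13% higher and 7.83% lower, and the lists are ordered by median log2 fold change, from posterior *Hox* genes at 5.63 to adipocyte markers at -3.75.

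The gut reads its position along the body axis from the *Hox* genes, transcription factors whose paralogue number rises towards the tail, and keeps that code in adult epithelium and mesenchyme. The groups differed in this code by paralogue number and by cluster. Among posterior *Hox* genes, 9 of 10 tested members were higher and 0 lower in AOM/DSS (median log2 fold change 5.63). *Hoxd13* (ENSMUSG00000001819, chromosome 2, 74668310 to 74671599) had 3 reads in the 3 recovery libraries together and 14350 in AOM/DSS, a ratio of 4120.3 (exact 95% counting interval 1409.6 to 19982). *Hoxd12* had no reads in recovery and 1082 in AOM/DSS, and was at least 311-fold higher against a floor of 3 reads over the group. *Hoxb13* (ENSMUSG00000049604, chromosome 11, 96194316 to 96197447) stood at 0.2, 0.486 and 0.0584 CPM in recovery against 283, 263 and 194 CPM in AOM/DSS (log2 fold change 10.01 with SE 0.48, adjusted p by edgeR 4e-05).

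Within the *Hoxd* cluster the difference followed the paralogue number, with log2 fold changes of -3.79, -2.29, 2.03, 3.69 and 5.59 for *Hoxd4*, *Hoxd8*, *Hoxd9*, *Hoxd10* and *Hoxd11*. *Hoxa9*, *Hoxa10* and *Hoxa13* had 5.66, 4.75 and 6.80. *Hoxa11* was not called (1.54, adjusted p by edgeR 0.0556), and *Hoxc10* was too low to be tested. Of the anterior *Hox* genes, 3 of 14 tested members were higher and 9 lower in AOM/DSS (median log2 fold change -3.04). *Hoxb6* stood at 76.6, 99.1 and 72 CPM in recovery against 0.721, 1.08 and 0.556 CPM in AOM/DSS (log2 fold change -6.70 with SE 0.30, adjusted p by edgeR 2.98e-05), and *Hoxb8* at 17.7, 30.7 and 19.98 CPM in recovery against 0.24, 0.69 and 0.741 CPM in AOM/DSS. *Hoxb7*, *Hoxb5*, *Hoxb4* and *Hoxb3* were lower as well, with log2 fold changes of -6.19, -5.52, -4.29 and -4.13. *Hoxb9* was lower too, at 101, 120.4 and 102 CPM in recovery against 45, 48.5 and 38.1 CPM in AOM/DSS (log2 fold change -1.30 with SE 0.16, adjusted p by edgeR 0.00273). It is counted here with the anterior genes, while its paralogues *Hoxa9* and *Hoxd9*, which were higher, are counted with the posterior genes, so that the posterior count of 0 lower rests on that placement. The 3 that were higher all lie in the *Hoxa* cluster, *Hoxa6* (4.36), *Hoxa7* (2.19) and *Hoxa5* (1.40). Among the largest rises outside these lists were *Hottip*, a long noncoding RNA at the 5′ end of the *Hoxa* cluster, and *Evx1*, a homeobox gene beside it. *Hottip* had no reads in recovery and 849 in AOM/DSS, at least 244-fold higher, and its reads are uncertain because another gene overlaps it. *Evx1* had 1 read against 941, a ratio of 811 (exact 95% counting interval 145.1 to 32049), and overlaps an antisense gene. *Osr2*, a zinc finger factor of gut mesenchyme, was lower, at 80.1, 80.4 and 78.7 CPM in recovery and 0, 0.345 and 0.0926 CPM in AOM/DSS. *Hoxa5* lost its call without recovery replicate 3 or AOM/DSS replicate 2 (edgeR adjusted p 0.0527 to 0.0576), and *Evx1* without recovery replicates 1, 2 or 3 (edgeR adjusted p 0.0662 to 0.0946).

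**Figure D2:**
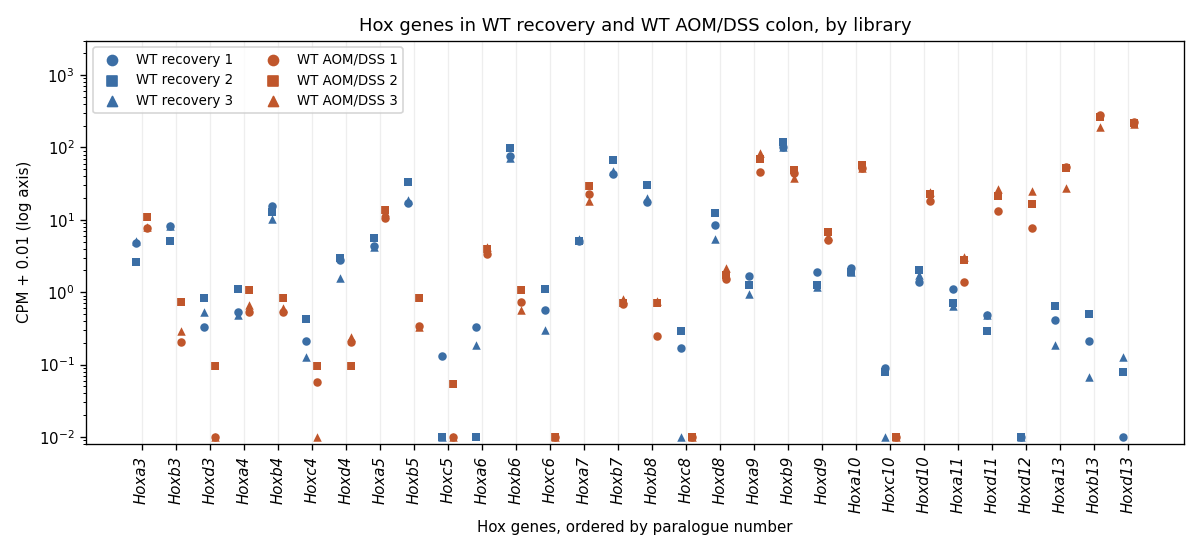
Level of each listed *Hox* gene in the 3 WT recovery libraries (blue) and the 3 WT AOM/DSS libraries (orange), in CPM plus 0.01 on a log axis, ordered by paralogue number. The recovery points stand above the AOM/DSS points in *Hoxb6* (log2 fold change -6.70) and below them in *Hoxb13* (10.01) and *Hoxd13* (3 reads against 14350).

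Posterior *Hox* expression could be separated from treatment only over all 18 libraries. There, replicate 2 of the untreated WT group held *Hoxb13* at no more than 10 CPM, as the recovery libraries did. With a covariate for *Hoxb13* above 10 CPM edgeR called 63 genes, 0.372% of 16937, 21 higher and 42 lower. Of the 2322 calls 21 were kept in the same direction, 12 were called in the opposite direction, and 1686 kept their sign. That separation rests on a single library. The calls kept included *Cldn2* (log2 fold change -3.01, edgeR adjusted p 0.0138), *Slc13a1* (-5.57), *Fabp6* (-8.87), *Spdef* (-2.41), *Scnn1b* (-3.66), *Hoxa10* (2.01) and *Hoxd10* (2.16). Those that turned included *Anxa3* (-2.74) of the fetal-like list. No call remained among the xenobiotic, ketogenesis, brush border, Wnt target, macrophage and B cell lists. Without the covariate, the same 18 libraries gave 4124 calls, 2173 of them among the 2322.

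**Figure D3:**
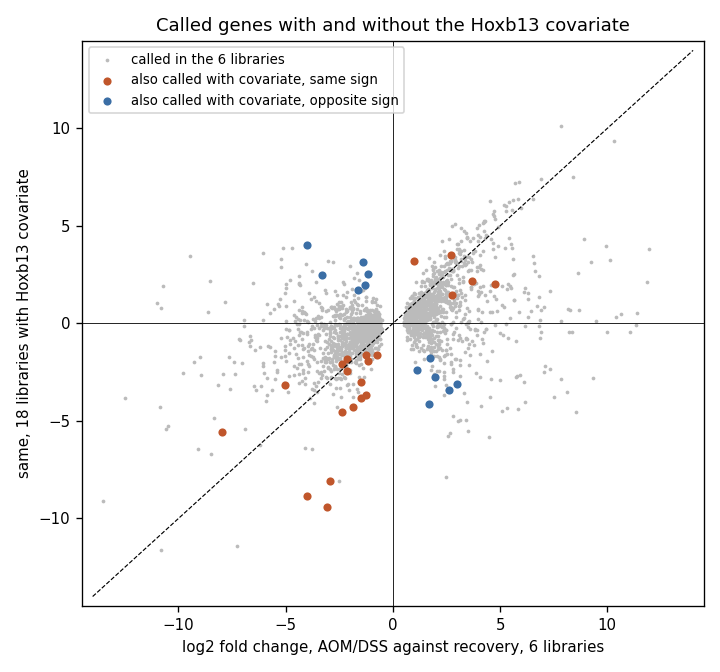
Log2 fold change of AOM/DSS against recovery for the 2322 called genes in the fit of 6 libraries (horizontal) and in the fit of 18 libraries with a covariate for *Hoxb13* above 10 CPM (vertical), with the line of equal values dashed. Of the called genes 21 kept call and sign (orange) and 12 were called with the opposite sign (blue), out of 63 genes called with the covariate.

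The claudins seal the paracellular space between epithelial cells, and claudin-2 forms a pore for cations and water. *Cldn2* (ENSMUSG00000047230, chromosome X, 139800828 to 139811386), the gene that the study set out to examine, was lower in AOM/DSS. It stood at 496, 299 and 480.2 CPM in recovery against 204, 124 and 132 CPM in AOM/DSS, so that the groups did not overlap (log2 fold change -1.47 with SE 0.28, adjusted p by edgeR 0.014). The call was lost without recovery replicates 1 or 3 or AOM/DSS replicate 2 (edgeR adjusted p 0.0505 to 0.0644). Of the claudins, 1 of 12 tested members were higher and 3 lower in AOM/DSS (median log2 fold change 0.28). The number lower was 0 without recovery replicate 1 or AOM/DSS replicate 2 and 3 without AOM/DSS replicate 3. *Cldn15*, a second pore-forming claudin, stood at 183, 234 and 137 CPM in recovery against 70.8, 51.3 and 22.2 CPM in AOM/DSS (log2 fold change -1.94, adjusted p by edgeR 0.0193), and *Cldn23* was lower too (-0.92, adjusted p by edgeR 0.0477). *Cldn14* rose from a low level, at 0.16, 0.625 and 0.35 CPM in recovery against 7.98, 4.23 and 3.15 CPM in AOM/DSS (log2 fold change 3.81, adjusted p by edgeR 0.00709). *Cldn4*, a tightening claudin, spread from 15.7 to 404 CPM within AOM/DSS and was not called (log2 fold change 1.65, adjusted p by edgeR 0.273). Without AOM/DSS replicate 1 *Cldn4* was called (2.19, adjusted p by edgeR 0.0383), and the number of claudins higher was 2. *Cldn7*, *Cldn3* and *Cldn8* were not called either (0.20, -0.25 and 1.88). *Cldn15* lost its call without recovery replicates 1 or 2 or AOM/DSS replicate 2 (edgeR adjusted p 0.0675 to 0.0763), and *Cldn23* without recovery replicates 1, 2 or 3 or AOM/DSS replicates 1 or 2 (edgeR adjusted p 0.0819 to 0.167).

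Part of the absorptive machinery was lower in AOM/DSS. The colon reabsorbs salt and water through apical exchangers and channels that are fed by carbonic anhydrases. Of the transport genes, 3 of 32 tested members were higher and 9 lower in AOM/DSS (median log2 fold change -0.45). *Car1*, the carbonic anhydrase of colonocytes, stood at 23900.5, 42204 and 30742 CPM in recovery against 652, 1062 and 99.8 CPM in AOM/DSS (log2 fold change -5.74 with SE 0.89, adjusted p by edgeR 0.00632). The guanylin hormones that set chloride and water secretion were lower too, with *Guca2a* at 2418, 5046 and 3205 CPM in recovery against 594, 364 and 80.2 CPM in AOM/DSS and *Guca2b* at 43.2, 23.5 and 65.9 CPM in recovery against 8.7, 6.86 and 4.91 CPM in AOM/DSS. *Slc13a1*, a sulfate transporter, fell by a log2 fold change of 7.98, from 178 to 267 CPM in recovery to 0.647 to 1.01 CPM in AOM/DSS. Also lower were *Sgk1* (-3.33), a kinase that activates sodium transport, *Slc9a3* (-3.23) and *Slc9a2* (-1.66), which exchange sodium for protons, and *Scnn1b* (-1.26), a subunit of the epithelial sodium channel. The higher members were *Atp12a*, the colonic proton-potassium pump, at 1.68, 2.43 and 1.58 CPM in recovery against 340.4, 248 and 308 CPM in AOM/DSS (log2 fold change 7.31 with SE 0.27, adjusted p by edgeR 1.53e-05), *Fxyd4*, a regulator of the sodium pump, at 0.36, 0.0695 and 0.701 CPM in recovery against 16.8, 29.1 and 26.7 CPM in AOM/DSS, and the water channel *Aqp4*, at 86.8, 79.3 and 74.7 CPM in recovery against 642, 391 and 315 CPM in AOM/DSS. *Slc26a3* and *Aqp8*, an anion exchanger and a water channel of surface colonocytes, were not called (-0.40 and 1.29). In both, AOM/DSS replicate 3 (69.3 and 44.4 CPM) lay below AOM/DSS replicates 1 and 2 (528 and 509 CPM for *Slc26a3*, 280.1 and 365 CPM for *Aqp8*). The number lower was 4 without recovery replicate 3 or AOM/DSS replicate 2 and 9 without AOM/DSS replicate 3. The number higher was 5 without AOM/DSS replicate 3 and 3 without any other library. *Guca2a* lost its call without recovery replicates 2 or 3 or AOM/DSS replicate 2 (edgeR adjusted p 0.0597 to 0.0735), *Slc9a3* without recovery replicates 1 or 3 or AOM/DSS replicates 1 or 2 (edgeR adjusted p 0.0685 to 0.129), and *Slc9a2* without recovery replicates 1, 2 or 3 or AOM/DSS replicate 2 (edgeR adjusted p 0.08 to 0.112). *Scnn1b* lost its call without recovery replicates 1 or 3 or AOM/DSS replicates 1, 2 or 3 (edgeR adjusted p 0.0613 to 0.132).

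Among calcium uptake genes, transcripts of the channels *Trpv6* and *Trpv3* were higher, and those of a carrier and of exporters were lower. *Trpv6* (ENSMUSG00000029868, chromosome 6, 41620621 to 41636405), the apical calcium channel, stood at 0.0801, 0.0695 and 0.0584 CPM in recovery against 51.7, 55.9 and 58.4 CPM in AOM/DSS (log2 fold change 9.49 with SE 0.26, adjusted p by edgeR 8.65e-06). The related channel *Trpv3* rose from at most 0.903 CPM to 52.6, 60.8 and 26.5 CPM (6.58). *S100g*, which encodes the cytosolic calcium carrier calbindin-D9k, went the other way, at 146, 739.7 and 400.0 CPM in recovery against 10.8, 24.2 and 5.69 CPM in AOM/DSS (-4.98). *Atp2b1* (-1.11) and *Slc8a1* (-2.61), which export calcium at the basal side, were lower as well. In all, 2 of 9 tested members were higher and 3 lower in AOM/DSS (median log2 fold change 0.10). *Slc8a1* lost its call without recovery replicate 3 (edgeR adjusted p 0.0535).

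**Figure D4:**
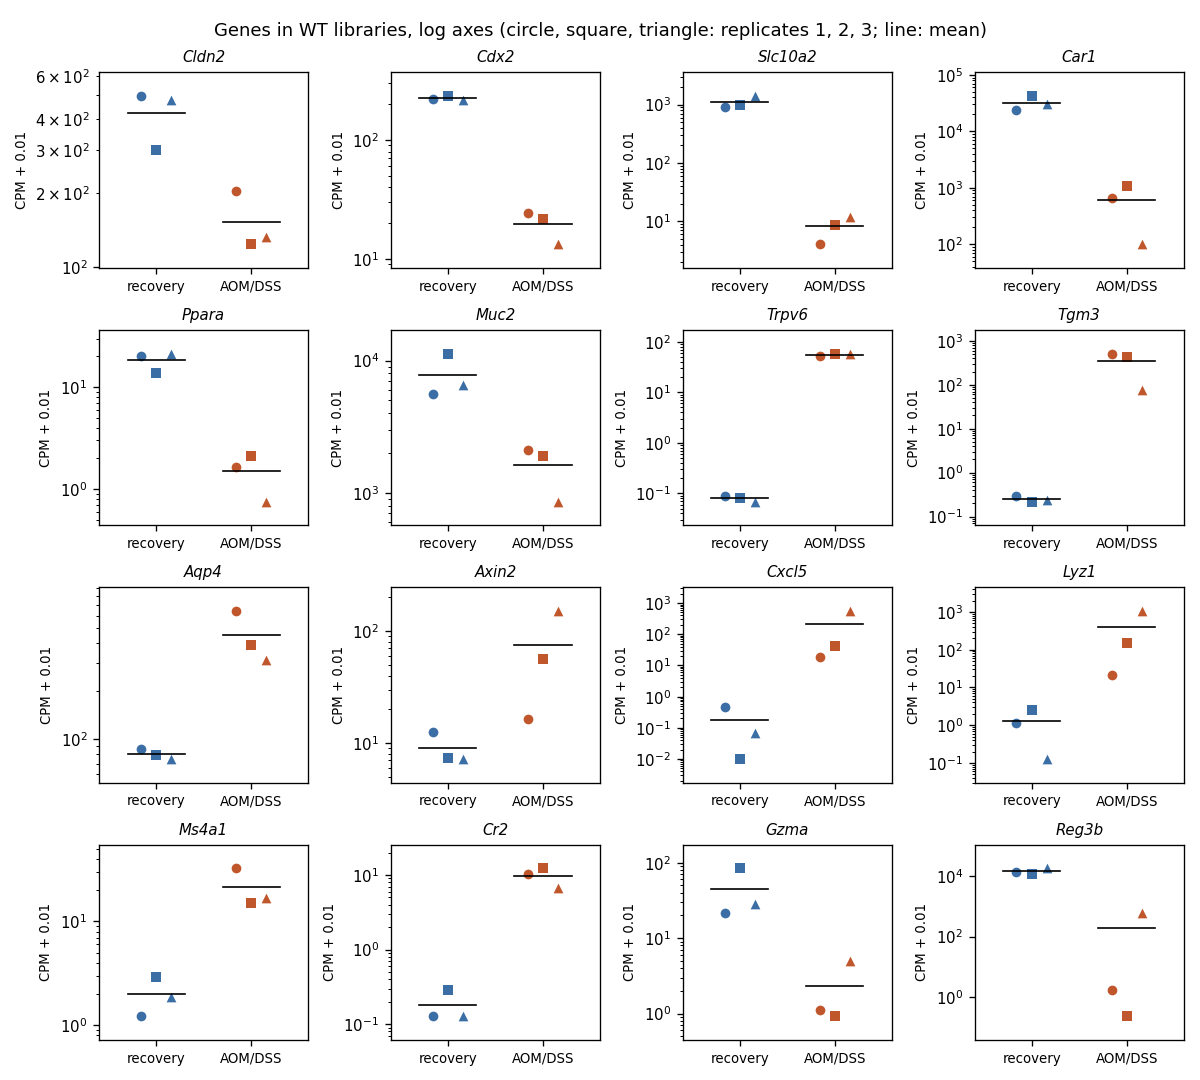
Level of 16 genes in each WT library, in CPM plus 0.01 on log axes, with recovery in blue, AOM/DSS in orange and the group mean as a line (n = 3 each). *Trpv6* lies at 51.7 to 58.4 CPM and *Cdx2* at 13.3 to 24.3 CPM within AOM/DSS, whereas *Axin2*, *Cxcl5*, *Lyz1* and *Reg3b* spread over more than a factor of 5 within AOM/DSS.

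Enzymes that detoxify drugs and dietary chemicals, which the proximal bowel and liver share, were the list with the most calls. Of these, 3 of 33 tested members were higher and 21 lower in AOM/DSS (median log2 fold change -2.50), and the number higher was 0 without recovery replicates 1, 2 or 3 or AOM/DSS replicate 2 and 2 without AOM/DSS replicate 3. Several cytochrome P450 genes of the *Cyp3a* and *Cyp2c* families were at or near 0 in AOM/DSS. *Cyp3a44* had 3821 reads in recovery and none in AOM/DSS, at least 1478.6-fold lower, and *Cyp2c66* had 660 reads and none, at least 255-fold lower. *Cyp3a25* had 1 read in AOM/DSS and 2198 in recovery, a ratio of 2551.7 (exact 95% counting interval 457.5 to 100832). These genes have close relatives, so their reads are uncertain between copies. *Cyp3a11* had 82 reads in recovery and 1 in AOM/DSS, a ratio of 95.2 (16.6 to 3805.3).

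Abundant members fell as well. *Cyp2c65* stood at 761, 1159.9 and 925 CPM in recovery against 15.1, 14.4 and 1.71 CPM in AOM/DSS (log2 fold change -6.51 with SE 0.80, adjusted p by edgeR 0.00236). *Cyp2c55* went from 5719, 8773 and 6776 CPM in recovery to 408, 399.5 and 5.05 CPM in AOM/DSS, with AOM/DSS replicate 3 far below the others (log2 fold change -4.71 with SE 1.27, adjusted p by edgeR 0.0452). *Aldh1a1*, a retinaldehyde dehydrogenase, stood at 1552, 1549 and 2022 CPM in recovery against 31.8, 22.1 and 6.02 CPM in AOM/DSS (-6.42), and the carboxylesterase *Ces1g* at 248, 263 and 173 CPM in recovery against 5.48, 2.89 and 1.85 CPM in AOM/DSS. Glucuronosyltransferases fell with them, *Ugt2b5* from 109, 232 and 106 CPM to at most 0.139 CPM (-10.82) and *Ugt1a1* by a log2 fold change of 5.05. The exceptions were *Cyp2c68* (log2 fold change 3.11 with SE 0.76, adjusted p by edgeR 0.0329) and *Cyp2d12* (2.79), which rose, and *Nr1i3*, the nuclear receptor CAR, which rose from at most 0.292 CPM to 0.769, 1.25 and 0.833 CPM. *Cyp2c55* lost its call without recovery replicates 1, 2 or 3 or AOM/DSS replicates 1 or 2 (edgeR adjusted p 0.0709 to 0.124), *Cyp2c68* without recovery replicates 1, 2 or 3 or AOM/DSS replicates 1 or 2 (edgeR adjusted p 0.0577 to 0.105), and *Cyp2d12* without recovery replicates 1, 2 or 3 or AOM/DSS replicate 2 (edgeR adjusted p 0.0529 to 0.0927). *Nr1i3* lost its call without any 1 of the 6 libraries (edgeR adjusted p 0.0522 to 0.144).

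HNF4 is a nuclear receptor that binds many promoters of gut and liver enzymes. The letters CAAAGTCCA, a close match to its site, were searched on both strands of the promoter windows of RefSeq (GRCm38.p6, 250 bases before to 50 after the start), and 150 of 27025 symbols with a window held them, 0.555%. Among xenobiotic genes 5 of 30 with a window did (16.7%), namely *Cyp3a11*, *Cyp2c65*, *Cyp2c68*, *Sult1b1* and *Cyp3a41a*. Of the brush border genes 2 of 28 did (*Alpi* and *Treh*), and of the bile acid genes 0 of 10. The letters were chosen with the results in view, so these shares are a description only. The windows of 4 called genes are printed with the matching letters in capitals, because they include relatives that moved in opposite directions.
Cyp2c65 (chr19:39060756-39061055, plus strand): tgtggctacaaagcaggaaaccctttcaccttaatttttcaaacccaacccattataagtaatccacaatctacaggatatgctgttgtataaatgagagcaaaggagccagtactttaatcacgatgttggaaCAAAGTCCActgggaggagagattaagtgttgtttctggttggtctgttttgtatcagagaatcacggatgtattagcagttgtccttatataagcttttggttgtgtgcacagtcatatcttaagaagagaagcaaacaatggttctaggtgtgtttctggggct
Cyp2c68 (chr19:39741052-39741351, minus strand): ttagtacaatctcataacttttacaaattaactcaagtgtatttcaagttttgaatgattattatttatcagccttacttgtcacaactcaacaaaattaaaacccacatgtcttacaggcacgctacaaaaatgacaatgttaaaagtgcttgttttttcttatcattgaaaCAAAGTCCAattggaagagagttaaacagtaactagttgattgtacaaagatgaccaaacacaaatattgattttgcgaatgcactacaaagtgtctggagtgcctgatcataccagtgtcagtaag
Alpi (chr1:87101557-87101856, minus strand): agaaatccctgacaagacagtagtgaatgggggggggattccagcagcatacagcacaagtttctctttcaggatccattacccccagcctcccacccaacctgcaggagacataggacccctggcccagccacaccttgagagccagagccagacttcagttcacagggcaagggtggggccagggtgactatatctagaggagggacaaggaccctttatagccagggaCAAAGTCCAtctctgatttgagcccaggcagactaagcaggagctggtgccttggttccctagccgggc
Trpv6 (chr6:41636356-41636655, minus strand): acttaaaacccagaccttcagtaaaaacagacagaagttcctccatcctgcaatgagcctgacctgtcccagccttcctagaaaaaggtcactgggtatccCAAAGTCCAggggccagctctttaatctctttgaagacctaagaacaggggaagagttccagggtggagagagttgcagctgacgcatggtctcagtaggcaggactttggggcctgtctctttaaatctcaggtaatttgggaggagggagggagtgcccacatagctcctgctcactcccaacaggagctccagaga

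Of these 4 genes, *Cyp2c65* and *Alpi* fell and *Cyp2c68* and *Trpv6* rose. The 4 windows were picked among holders of the letters, so a relation between the letters and the direction of change was not tested. Other motifs were searched in the same way. The TCF/LEF core CTTTGA stood in 4 of 18 windows of Wnt targets (22.2%) against 18.2% of all symbols. The AP-1 site TGACTCA stood in 6 of 23 windows of TNF and NF-κB genes (26.1%) against 5.95%, and the CDX site TTTATGG in 2 of 28 windows of brush border genes (7.14%) against 3.21%. The AP-1 holders were *Il6*, *Il1a*, *Tnfaip3*, *Cxcl10*, *Il11* and *Lif*, and of these only *Tnfaip3* was among the called genes.

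Bile acids are taken up from the lumen by the apical transporter *Slc10a2*, carried on *Fabp6* and exported by the *Slc51a* and *Slc51b* pair, under control of the receptor *Nr1h4*. Every one of these 5 genes was lower in AOM/DSS, and 0 of 9 tested members were higher and 6 lower in AOM/DSS (median log2 fold change -2.03). *Slc10a2* stood at 909.9, 981 and 1396 CPM in recovery against 4.04, 8.8 and 12 CPM in AOM/DSS (log2 fold change -7.04 with SE 0.49, adjusted p by edgeR 0.000268). *Slc51a* stood at 235, 166 and 317 CPM in recovery against 0.24, 0.0862 and 0.0926 CPM in AOM/DSS (-10.70), and *Slc51b* at 89.6, 169 and 123 CPM in recovery against 11.5, 7.03 and 6.48 CPM in AOM/DSS (-3.93). *Nr1h4*, which encodes FXR, fell by a log2 fold change of 2.03 and *Fabp6* by 4.02. *Klb*, a coreceptor for FGF15 and FGF19, was not called (2.39, adjusted p by edgeR 0.0558), and *Fgf15* itself had too few reads to be tested.

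Most fuel genes were lower. Colonocytes oxidise butyrate and other fatty acids, and make ketone bodies from them. Among these genes 0 of 22 tested members were higher and 14 lower in AOM/DSS (median log2 fold change -1.22), and the number lower was 8 without recovery replicate 3 or AOM/DSS replicate 2 and 15 without AOM/DSS replicate 1. *Ppara*, a nuclear receptor that activates fatty acid oxidation, stood at 20.02, 13.8 and 21.4 CPM in recovery against 1.64, 2.11 and 0.741 CPM in AOM/DSS (log2 fold change -3.61 with SE 0.41, adjusted p by edgeR 0.00178), and the PPAR target *Pdk4* at 70.3, 45 and 83.4 CPM in recovery against 2.89, 2.67 and 7.64 CPM in AOM/DSS (-3.91). The fatty acid carrier *Slc27a4* (-2.51) and the oxidation enzyme *Acads* (-1.5) were lower too.

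Nuclear genes of the respiratory chain gave smaller changes, and 0 of 30 tested members were higher and 10 lower in AOM/DSS (median log2 fold change -0.80). *Cycs*, cytochrome c, had the largest of these (log2 fold change -1.44 with SE 0.21, adjusted p by edgeR 0.00516), and *Cox4i1* and *Ndufa4* had -0.92 and -1.23. The number lower was 1 without recovery replicate 3 or AOM/DSS replicate 2 and 13 without AOM/DSS replicate 1, so the count depended on single libraries, and it was 18 with a covariate for *Xist* and 24 with all 18 libraries. Of the mitochondrially encoded genes 1 of 12 was called, *mt-Atp6* (-1.31, adjusted p by edgeR 0.0436), and *mt-Co1* and *mt-Nd1* were not (-1.23 and -0.81). Glycolysis and hypoxia genes gave 2 higher and 1 lower of 24 (median 0.07, and -0.26 with the *Hoxb13* covariate). *Hif1a*, the hypoxia factor, rose from 64.1, 61.7 and 80.02 CPM to 238, 299 and 486 CPM (2.31), with *Egln3* (2.09), the prolyl hydroxylase that degrades it, while *Ndrg1* fell by 1.65 and *Ldha* and *Slc2a1* were not called (-0.26 and -0.25). *Cox4i1* lost its call without recovery replicates 1, 2 or 3 or AOM/DSS replicate 2 (edgeR adjusted p 0.0515 to 0.0963), *Ndufa4* without recovery replicates 1, 2 or 3 or AOM/DSS replicates 1 or 2 (edgeR adjusted p 0.0594 to 0.153), and *mt-Atp6* without recovery replicates 2 or 3 or AOM/DSS replicates 2 or 3 (edgeR adjusted p 0.0811 to 0.133).

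The brush border carries digestive hydrolases on microvilli. Of its genes, 2 of 25 tested members were higher and 12 lower in AOM/DSS (median log2 fold change -1.09), with 7 without recovery replicate 3 and 15 without AOM/DSS replicate 1 lower. *Sis*, sucrase-isomaltase, stood at 29.1, 78.2 and 180.2 CPM in recovery against 0.144, 0 and 0.0463 CPM in AOM/DSS (log2 fold change -10.47 with SE 1.02, adjusted p by edgeR 0.000936). *Fabp2*, an intestinal fatty acid carrier, stood at 476, 2104 and 606 CPM in recovery against 32.4, 29.9 and 6.3 CPM in AOM/DSS (-5.54), and the alkaline phosphatase *Alpi* at 21, 19.5 and 40.7 CPM in recovery against 0.337, 1.03 and 0.556 CPM in AOM/DSS (-5.37). The peptidase *Enpep* (-5.04) fell as well. The peptide transporter *Slc15a1* was the exception, at 2.24, 4.24 and 1.46 CPM in recovery against 73.9, 91.5 and 28.5 CPM in AOM/DSS (log2 fold change 4.63 with SE 0.56, adjusted p by edgeR 0.00214), together with the peptidase *Ace* (1.32). *Vil1*, the structural microvillus protein villin, was not called (-0.37), nor was the peptidase *Anpep* (0.03). Beyond the list, *Tmigd1*, an adhesion protein of enterocyte microvilli, stood at 1039, 943 and 1384 CPM in recovery against 1.35, 3.75 and 1.67 CPM in AOM/DSS (-8.95). *Abca12*, a lipid transporter, went from 141, 140.3 and 149.8 CPM to at most 0.345 CPM, and *Prap1*, a secreted epithelial protein whose gene overlaps another on the opposite strand and is uncertain, from 62.6, 199 and 65 CPM to at most 0.337 CPM. *Ace* lost its call without recovery replicates 1, 2 or 3 or AOM/DSS replicates 1 or 2 (edgeR adjusted p 0.0524 to 0.0975).

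Of the epithelial identity genes 16.7% were called, near the 15% over all genes. *Cdx2*, the homeobox factor that specifies intestinal epithelium, stood at 222, 234 and 218 CPM in recovery against 24.3, 21.6 and 13.3 CPM in AOM/DSS (log2 fold change -3.51 with SE 0.25, adjusted p by edgeR 0.000276). *Krt20*, a keratin of mature surface cells, fell as well (-1.10, adjusted p by edgeR 0.0193). In all, 0 of 12 tested members were higher and 2 lower in AOM/DSS (median log2 fold change -0.24). *Krt20* lost its call without recovery replicate 1 or AOM/DSS replicate 2 (edgeR adjusted p 0.0611 to 0.0885).

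Goblet cells secrete the mucus gel. *Muc2*, its main mucin, stood at 5601, 11307 and 6475 CPM in recovery against 2106, 1895 and 856 CPM in AOM/DSS (log2 fold change -2.27 with SE 0.46, adjusted p by edgeR 0.0163), and its call was lost without AOM/DSS replicate 2 (edgeR adjusted p 0.0619). *Spdef*, the factor of goblet cell maturation, stood at 98.4, 188 and 98.2 CPM in recovery against 26.6, 34.4 and 27.2 CPM in AOM/DSS (-2.12), and the glycosyltransferases that build mucin glycans fell, *B3gnt6* from 40.9, 72.9 and 53.3 CPM to at most 0.992 CPM and *Gcnt3* by a log2 fold change of 2.86. *Clca1* was not called (0.05), and *Muc1*, a membrane mucin, rose (3.86, adjusted p by edgeR 0.0169). Over the list, 1 of 25 tested members were higher and 5 lower in AOM/DSS (median log2 fold change -0.32), and the number higher was 0 without recovery replicates 1, 2 or 3 and 4 without AOM/DSS replicate 3. *Muc1* lost its call without recovery replicates 1, 2 or 3 (edgeR adjusted p 0.0588 to 0.0904).

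Antimicrobial genes split. *Retnlb*, a resistin-like goblet cell product, stood at 413, 402 and 1525 CPM in recovery against 6.88, 15.5 and 29.6 CPM in AOM/DSS (log2 fold change -5.49 with SE 0.79, adjusted p by edgeR 0.00462). *Defb37*, a defensin, had 1785 reads in recovery and none in AOM/DSS, at least 691-fold lower, and *Reg3a* and *Ang* fell by 4.81 and 2.53. *Reg3b*, a bactericidal lectin, was among the most abundant transcripts of recovery and varied widely in AOM/DSS. It stood at 14269, 11576 and 18375 CPM in recovery against 1.73, 0.216 and 592 CPM in AOM/DSS and was not called (log2 fold change -6.22 with SE 2.46, adjusted p by edgeR 0.135), nor was *Reg3g*, at 1146, 1400.5 and 1068 CPM in recovery against 5.53, 0.733 and 541 CPM in AOM/DSS (-2.72, adjusted p by edgeR 0.35). Without AOM/DSS replicate 3, which held 592 CPM of *Reg3b* and 541 CPM of *Reg3g*, both were called (edgeR adjusted p 0.000267 and 0.0011). Higher were the Paneth cell lysozyme *Lyz1*, at 1.12, 2.5 and 0.117 CPM in recovery against 21, 146 and 1065 CPM in AOM/DSS (log2 fold change 8.40 with SE 1.74, adjusted p by edgeR 0.0211), the pentraxin *Mptx1*, at 0.641, 5.42 and 0.0584 CPM in recovery against 1372, 297 and 81.2 CPM in AOM/DSS (8.24, adjusted p by edgeR 0.0196), and the phospholipase *Pla2g2a* (3.68, adjusted p by edgeR 0.0225). *Lyz1* was highest in AOM/DSS replicate 3 and *Mptx1* in AOM/DSS replicate 1. Over the list, 3 of 17 tested members were higher and 5 lower in AOM/DSS (median log2 fold change -0.36). The number higher was 0 without recovery replicates 1 or 3 and 5 without AOM/DSS replicate 1, and the number lower was 3 without recovery replicates 1, 2 or 3 and 8 without AOM/DSS replicate 3. With the *Hoxb13* covariate the median turned to 0.68. *Reg3a* lost its call without recovery replicates 1, 2 or 3 (edgeR adjusted p 0.0588 to 0.0705), *Lyz1* without recovery replicates 1, 2 or 3 (edgeR adjusted p 0.0705 to 0.108), and *Mptx1* without recovery replicates 1 or 3 (edgeR adjusted p 0.0745 to 0.0975). *Pla2g2a* lost its call without recovery replicates 1, 2 or 3 (edgeR adjusted p 0.0805 to 0.106).

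Enteroendocrine hormones fell in part. Of these, 1 of 22 tested members were higher and 7 lower in AOM/DSS (median log2 fold change -1.19). *Nts*, neurotensin, stood at 44.5, 152 and 45.5 CPM in recovery against 0.337, 0.302 and 1.34 CPM in AOM/DSS (log2 fold change -6.92 with SE 0.79, adjusted p by edgeR 0.00178), and secretin, *Sct*, at 29.5, 63.5 and 23.8 CPM in recovery against 1.92, 2.16 and 1.71 CPM in AOM/DSS (-4.33). *Sst* (-3.74), the islet-type peptide *Iapp* (-4.34, adjusted p by edgeR 0.0316), the prohormone convertase *Pcsk1* (-3.04), the serotonin enzyme *Tph1* (-2.13) and the granule protein *Chga* (-2.02) were lower. *Insl5*, a hormone of the distal colon, rose from 2.52, 6.53 and 7.01 CPM to 115, 53.2 and 12.5 CPM (3.50, adjusted p by edgeR 0.0231). *Pyy* was not called (0.90). No tuft cell gene of 10 tested was called (median -0.94), among them *Dclk1* (-0.73). *Iapp* lost its call without recovery replicates 1, 2 or 3 or AOM/DSS replicates 1 or 2 (edgeR adjusted p 0.0597 to 0.105), *Chga* without recovery replicates 1 or 2 or AOM/DSS replicate 2 (edgeR adjusted p 0.0891 to 0.0946), and *Insl5* without recovery replicates 1, 2 or 3 or AOM/DSS replicate 2 (edgeR adjusted p 0.0574 to 0.101).

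Wnt signalling keeps crypt cells dividing, and its target genes rise where β-catenin is active. Of 24 tested targets 7 were higher and none lower, and 23 had a positive log2 fold change (median 1.84). *Axin2*, a negative regulator that reports the pathway, stood at 12.5, 7.29 and 7.18 CPM in recovery against 16.4, 55.8 and 151 CPM in AOM/DSS (log2 fold change 3.05 with SE 0.72, adjusted p by edgeR 0.0296). The feedback inhibitor *Nkd1* stood at 3.28, 1.53 and 1.23 CPM in recovery against 2.4, 45.9 and 241 CPM in AOM/DSS (5.54, adjusted p by edgeR 0.0496), the transcription factor *Lef1* at 0.12, 0.139 and 0.0584 CPM in recovery against 0.577, 4.18 and 12.5 CPM in AOM/DSS (5.68, adjusted p by edgeR 0.0184), and *Prox1*, a homeobox target, at 3.44, 2.64 and 1.93 CPM in recovery against 3.8, 51.3 and 263 CPM in AOM/DSS (5.30, adjusted p by edgeR 0.0442). In these 4 genes AOM/DSS replicate 3 was highest, replicate 2 intermediate and replicate 1 at most at 16.4 CPM. The same order held in targets that were under 0.5 CPM in 4 libraries and were not tested. *Notum* stood at 0.36, 0 and 0.117 CPM in recovery against 0.144, 23.8 and 96.6 CPM in AOM/DSS, *Apcdd1* at 0.4, 0.278 and 0.0584 CPM in recovery against 0.289, 26.3 and 135 CPM in AOM/DSS, *Wnt10a* at 0, 0.0695 and 0 CPM in recovery against 0.0481, 2.67 and 18 CPM in AOM/DSS and *Dkk2* at 0.32, 0.278 and 0 CPM in recovery against 0.24, 12.1 and 61.3 CPM in AOM/DSS. *Ephb3* (1.43, adjusted p by edgeR 0.00596), *Myc* (1.0, adjusted p by edgeR 0.0308) and *Ascl2* (1.83, adjusted p by edgeR 0.0477) were higher with less spread. *Mmp7* was not called (2.51, adjusted p by edgeR 0.308). The count depended on single libraries, with 1 without recovery replicates 1, 2 or 3 and 20 without AOM/DSS replicate 1. *Axin2* lost its call without recovery replicates 1, 2 or 3 or AOM/DSS replicate 2 (edgeR adjusted p 0.0624 to 0.131), *Nkd1* without recovery replicates 1, 2 or 3 or AOM/DSS replicates 2 or 3 (edgeR adjusted p 0.0564 to 0.187), and *Lef1* without recovery replicates 1, 2 or 3 (edgeR adjusted p 0.0849 to 0.0916). *Prox1* lost its call without recovery replicates 1, 2 or 3 or AOM/DSS replicate 2 (edgeR adjusted p 0.0681 to 0.176), *Myc* without recovery replicates 1, 2 or 3 or AOM/DSS replicates 2 or 3 (edgeR adjusted p 0.0582 to 0.098), and *Ascl2* without recovery replicates 1, 2 or 3 or AOM/DSS replicates 2 or 3 (edgeR adjusted p 0.0884 to 0.151).

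Of the crypt stem cell genes, 3 of 13 tested members were higher and 0 lower in AOM/DSS (median log2 fold change 0.49). With the *Hoxb13* covariate the median turned to -0.25, and 1 member was called with the *Xist* covariate. *Lgr5*, the stem cell receptor, stood at 8.29, 11.5 and 4.03 CPM in recovery against 2.69, 20.1 and 72.7 CPM in AOM/DSS and was not called (2.01, adjusted p by edgeR 0.197), *Olfm4* had too few reads to be tested, and the called members were *Aqp4*, *Ascl2* and *Smoc2* (1.59, adjusted p by edgeR 0.0475), with 1 without recovery replicates 1, 2 or 3 or AOM/DSS replicates 2 or 3 and 5 without AOM/DSS replicate 1. Of the genes of cell division, no mitosis gene of 30 and no DNA replication gene of 34 was called, although 30 and 24 of them had positive log2 fold changes (medians 0.39 and 0.22). With the *Hoxb13* covariate these medians turned to -0.81 and -0.45. *Mki67*, which encodes Ki67, stood at 265, 202 and 176 CPM in recovery against 335, 218 and 256 CPM in AOM/DSS (log2 fold change 0.33 with SE 0.23, adjusted p by edgeR 0.363), and *Top2a*, *Birc5* (Survivin), *Pcna* and *Mcm2* had 0.50, 0.01, -0.03 and 0.55. Of the ribosome biogenesis genes 3 of 20 were higher, *Utp20* (1.17), *Rrp1b* (1.11) and *Polr1b* (0.80), and *Ncl* and *Nifk* were not called (0.26 and -0.19), with 0 without recovery replicates 1 or 3 or AOM/DSS replicate 2 and 2 without AOM/DSS replicate 3 higher. The median of that list was 0.29, and -0.23 with the *Hoxb13* covariate. *Smoc2* lost its call without recovery replicates 1, 2 or 3 or AOM/DSS replicates 2 or 3 (edgeR adjusted p 0.0517 to 0.17), *Utp20* without recovery replicates 1, 2 or 3 or AOM/DSS replicates 1 or 2 (edgeR adjusted p 0.0761 to 0.122), and *Rrp1b* without recovery replicates 1, 2 or 3 or AOM/DSS replicates 2 or 3 (edgeR adjusted p 0.0746 to 0.154). *Polr1b* lost its call without recovery replicates 1 or 3 or AOM/DSS replicates 1 or 2 (edgeR adjusted p 0.0605 to 0.107).

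After injury the epithelium can return to a fetal-like state. Of its markers, 7 of 23 tested members were higher and 0 lower in AOM/DSS (median log2 fold change 0.79), with 2 without recovery replicate 1 and 9 without AOM/DSS replicate 1 higher, and 2 were called with the *Xist* covariate. *Anxa8*, a membrane-binding annexin, had the largest rise, at 4, 5.97 and 2.39 CPM in recovery against 210.4, 388 and 378 CPM in AOM/DSS (log2 fold change 6.31 with SE 0.44, adjusted p by edgeR 0.000262). *Anxa1* (2.01, adjusted p by edgeR 0.0127), *Anxa3* (1.96, adjusted p by edgeR 0.0013) and *Clu* (3.22, adjusted p by edgeR 0.00857), which marks revival stem cells, rose with the interleukin-1 antagonist *Il1rn* (2.19, adjusted p by edgeR 0.0167). *Ly6a*, which encodes SCA-1, was not called (0.66, adjusted p by edgeR 0.211), and stood at 672, 520.4 and 551 CPM in recovery against 740.5, 619 and 1392 CPM in AOM/DSS. No member of the EGF family of 15 tested was called, and *Egf* and *Ereg* had log2 fold changes of -0.77 and -1.0. *Anxa1* lost its call without recovery replicates 1, 2 or 3 (edgeR adjusted p 0.0559 to 0.0589), *Clu* without recovery replicates 1 or 3 (edgeR adjusted p 0.0584 to 0.0592), and *Il1rn* without recovery replicates 1 or 2 or AOM/DSS replicate 2 (edgeR adjusted p 0.0552 to 0.0765).

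Shares called were 13.6% for p53 targets, 13% for apoptosis and survival genes, 16.7% for immediate early and stress genes and 17.6% for clock genes. These were near the 15% over all genes. Lower shares were found for genes that repair alkylated or mismatched DNA (7.14%) and for necroptosis and pyroptosis genes (5.56%). Of p53 targets 2 were higher and 1 lower of 22 (median 0.04). *Cdkn1a*, which encodes p21, stood at 112, 115 and 140.0 CPM in recovery against 105, 128 and 131 CPM in AOM/DSS (log2 fold change -0.01 with SE 0.17, adjusted p by edgeR 0.973), and *Mdm2* was not called (0.24). *Ddit4l* (2.67) and *Eda2r* (1.45) were higher, and *Sesn1* was lower (-1.70). Of the genes that repair alkylated or mismatched DNA 1 of 14 was called, *Parp1* (1.03, adjusted p by edgeR 0.0241), and *Mgmt*, which removes alkyl groups from guanine, had -0.62. Apoptosis and survival gave 2 higher and 1 lower of 23 (median 0.01), with *Casp14* (0.04, 0 and 0.0584 CPM in recovery against 21.2, 20.4 and 9.07 CPM in AOM/DSS) and *Birc3* (1.02, adjusted p by edgeR 0.0238) higher. *Bcl2* was not called (-0.30). *Casp14*, a caspase of epidermal cornification with little role in apoptosis, had 2 reads in recovery and 1108 in AOM/DSS, a ratio of 477 (exact 95% counting interval 131.8 to 3945.3). Necroptosis and pyroptosis gave 1 of 18, *Gsdma* (3.28, adjusted p by edgeR 0.0484), and *Mlkl* and *Ripk3* were not called (-0.23 and 0.15). Immediate early and stress genes gave 3 lower of 18 (median 0.11), the heat shock genes *Hspa1a* (-2.74), *Hspa1b* (-1.97) and *Hsph1* (-0.98), and *Fos* was not called (0.53). Clock genes gave 3 lower of 17 (median -0.22), *Cry1* (-1.61), *Cry2* (-1.29) and *Per1* (-0.83), and *Arntl* and *Dbp* were not (0.28 and -0.36), with 0 without recovery replicate 3 and 4 without AOM/DSS replicate 3 lower. With the *Hoxb13* covariate the medians turned to -0.28 for immediate early and stress genes and to 0.38 for clock genes. *Ddit4l* lost its call without recovery replicates 1, 2 or 3 or AOM/DSS replicate 2 (edgeR adjusted p 0.0536 to 0.0762), *Eda2r* without any 1 of the 6 libraries (edgeR adjusted p 0.0548 to 0.164), and *Parp1* without recovery replicates 2 or 3 or AOM/DSS replicate 2 (edgeR adjusted p 0.0521 to 0.105). *Birc3* lost its call without recovery replicate 1 or AOM/DSS replicate 2 (edgeR adjusted p 0.0683 to 0.0885), *Gsdma* without recovery replicates 1, 2 or 3 or AOM/DSS replicates 2 or 3 (edgeR adjusted p 0.0766 to 0.173), and *Hspa1a* without recovery replicate 2 or AOM/DSS replicate 2 (edgeR adjusted p 0.0501 to 0.0526). *Hsph1* lost its call without recovery replicates 1, 2 or 3 or AOM/DSS replicates 1 or 2 (edgeR adjusted p 0.0567 to 0.149), *Cry1* without recovery replicates 1 or 3 or AOM/DSS replicate 2 (edgeR adjusted p 0.0726 to 0.0852), and *Cry2* without recovery replicate 3 (edgeR adjusted p 0.0538). *Per1* lost its call without recovery replicates 1, 2 or 3 or AOM/DSS replicates 1 or 2 (edgeR adjusted p 0.0604 to 0.106).

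Inflammatory genes rose in part, and AOM/DSS replicate 3 was the highest library for *Cxcl5*, *Cxcl1*, *Tnf* and *Il1b*. Of the TNF and NF-κB list, 8 of 28 tested members were higher and 1 lower in AOM/DSS (median log2 fold change 1.73). *Cxcl5*, a neutrophil chemokine, stood at 0.44, 0 and 0.0584 CPM in recovery against 19.3, 40.6 and 561 CPM in AOM/DSS (log2 fold change 9.95 with SE 1.87, adjusted p by edgeR 0.0151), and its call was lost without recovery replicates 1, 2 or 3 (edgeR adjusted p 0.0689 to 0.0936). *Cxcl1*, a second one, stood at 0.4, 0 and 0.292 CPM in recovery against 4.81, 6.47 and 50.6 CPM in AOM/DSS (6.31, adjusted p by edgeR 0.0142). *Tnf* stood at 2.64, 0.764 and 1.34 CPM in recovery against 3.32, 9.87 and 24.4 CPM in AOM/DSS (log2 fold change 2.95 with SE 0.76, adjusted p by edgeR 0.0388), with its call lost without recovery replicates 1, 2 or 3 or AOM/DSS replicates 2 or 3 (edgeR adjusted p 0.0679 to 0.147), and *Ccl20*, which draws lymphocytes to follicles, at 0.52, 4.03 and 1.87 CPM in recovery against 29.7, 46 and 17.8 CPM in AOM/DSS (3.91, adjusted p by edgeR 0.00975). *Stat3*, the factor below IL-6 and IL-22, stood at 77.8, 54.7 and 78.5 CPM in recovery against 128, 123 and 150.4 CPM in AOM/DSS (log2 fold change 0.93 with SE 0.19, adjusted p by edgeR 0.0182), and *Tnfaip3*, an inhibitor of NF-κB, at 28.2, 15.6 and 32.7 CPM in recovery against 67.2, 84.8 and 93 CPM in AOM/DSS (1.68, adjusted p by edgeR 0.00854). The other calls were *Nfkbiz* (0.59) and *Ccl2* (2.23), higher, and *Ccl5*, a product of cytotoxic lymphocytes, lower at 12.4, 25.3 and 7.07 CPM in recovery against 1.44, 0.69 and 1.34 CPM in AOM/DSS (-3.68, adjusted p by edgeR 0.00539). *Il1b* stood at 2, 1.46 and 1.52 CPM in recovery against 2.93, 5.26 and 73.1 CPM in AOM/DSS and was not called (log2 fold change 4.01 with SE 1.20, adjusted p by edgeR 0.0633). *Il6* (at most 2.41 CPM) and *Il22* (at most 0.741 CPM) had too few reads to be tested. The number higher was 1 without recovery replicate 3 and 14 without AOM/DSS replicate 1. *Cxcl1* lost its call without recovery replicates 1, 2 or 3 (edgeR adjusted p 0.0715 to 0.0799), *Ccl20* without recovery replicate 3 (edgeR adjusted p 0.065), and *Stat3* without recovery replicates 1 or 3 or AOM/DSS replicate 2 (edgeR adjusted p 0.0505 to 0.0582). *Nfkbiz* lost its call without any 1 of the 6 libraries (edgeR adjusted p 0.0611 to 0.158), and *Ccl2* without recovery replicates 1, 2 or 3 or AOM/DSS replicates 2 or 3 (edgeR adjusted p 0.0761 to 0.148).

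Neutrophil markers had a median log2 fold change of 3.17 and no call among 7 tested, and 6 were called without AOM/DSS replicate 1. *S100a8*, a calprotectin subunit of neutrophils, stood at 1.12, 0.695 and 2.92 CPM in recovery against 1.3, 4.31 and 171 CPM in AOM/DSS (log2 fold change 5.21 with SE 1.83, adjusted p by edgeR 0.102), and *S100a9* at 1.24, 1.18 and 3.86 CPM in recovery against 1.06, 7.89 and 132 CPM in AOM/DSS. Other markers were below the filter and highest in AOM/DSS replicate 3, such as *Csf3r* (0.24, 1.64 and 10.3 CPM) and *Cxcr2* (0, 0.431 and 3.38 CPM). Matrix metalloproteinases and inhibitors gave 3 higher of 15 (median 2.12), *Timp4* (3.56, adjusted p by edgeR 0.00875), *Mmp14* (1.98, adjusted p by edgeR 0.0373) and *Mmp2* (0.92, adjusted p by edgeR 0.0452), and *Timp1* was not called (2.12). The number higher was 1 without recovery replicates 1, 2 or 3 or AOM/DSS replicate 2 and 6 without AOM/DSS replicate 1. Of the oxidases and nitric oxide genes 4 were higher and 2 lower of 13 (median 0.84). *Nox1*, the colonic NADPH oxidase, stood at 13.5, 5.84 and 7.07 CPM in recovery against 78.7, 61.4 and 51.5 CPM in AOM/DSS (log2 fold change 2.85 with SE 0.35, adjusted p by edgeR 0.00226), and the phagocyte oxidase *Cybb* (2.62, adjusted p by edgeR 0.00619), *Duox2* (1.39, adjusted p by edgeR 0.0402) and *Sod3* (1.71, adjusted p by edgeR 0.0388) rose too, while *Cat*, catalase (-1.42, adjusted p by edgeR 0.0266), and *Noxa1* (-1.24, adjusted p by edgeR 0.00729) fell. *Mmp14* lost its call without recovery replicates 1, 2 or 3 or AOM/DSS replicate 2 (edgeR adjusted p 0.0768 to 0.144), *Mmp2* without any 1 of the 6 libraries (edgeR adjusted p 0.0595 to 0.165), and *Duox2* without recovery replicates 1, 2 or 3 or AOM/DSS replicates 2 or 3 (edgeR adjusted p 0.0504 to 0.141). *Sod3* lost its call without recovery replicates 1, 2 or 3 or AOM/DSS replicates 2 or 3 (edgeR adjusted p 0.0589 to 0.141), and *Cat* without recovery replicates 1 or 3 or AOM/DSS replicate 2 (edgeR adjusted p 0.071 to 0.0859).

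B lineage cells were the immune type with the most calls. Of their markers, 13 of 17 tested members were higher and 0 lower in AOM/DSS (median log2 fold change 2.91), with 9 without recovery replicate 3 and 14 without AOM/DSS replicate 1 higher. *Ms4a1*, which encodes CD20, stood at 1.2, 2.92 and 1.87 CPM in recovery against 32.6, 15 and 16.9 CPM in AOM/DSS (log2 fold change 3.45 with SE 0.45, adjusted p by edgeR 0.00302). *Cr2*, a complement receptor of follicular B cells, stood at 0.12, 0.278 and 0.117 CPM in recovery against 10.1, 12.3 and 6.62 CPM in AOM/DSS (log2 fold change 5.84 with SE 0.49, adjusted p by edgeR 0.000507). *Pax5*, the factor of B cell identity, had 3 reads in recovery and 241 in AOM/DSS, a ratio of 69.2 (exact 95% counting interval 23.4 to 338). *Fcmr*, a receptor for IgM, had 1 and 101 reads, a ratio of 87.0 (15.3 to 3469.9). The immunoglobulin genes *Jchain* (1.46, adjusted p by edgeR 0.0188) and *Igkc* (1.54, adjusted p by edgeR 0.0306) rose as well. The summed level of the list was 3358 to 3539 CPM in recovery and 3663 to 5816 CPM in AOM/DSS. With a covariate for *Xist* in all 18 libraries 1 member was called. *Jchain* lost its call without recovery replicates 1, 2 or 3 (edgeR adjusted p 0.0559 to 0.0799), and *Igkc* without recovery replicates 2 or 3 or AOM/DSS replicates 2 or 3 (edgeR adjusted p 0.0528 to 0.116).

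Some T and NK cell genes were lower. Of these, 0 of 18 tested members were higher and 8 lower in AOM/DSS (median log2 fold change -1.81), with 2 without AOM/DSS replicate 2 and 8 without AOM/DSS replicate 3 lower, and 1 was called with the *Xist* covariate. With the *Hoxb13* covariate the median turned to 0.98. The summed level was 85.7 to 249 CPM in recovery and 21.6 to 50 CPM in AOM/DSS, which did not overlap. *Cd8a* stood at 6.65, 9.86 and 5.96 CPM in recovery against 1.25, 0.862 and 2.04 CPM in AOM/DSS (log2 fold change -2.43 with SE 0.42, adjusted p by edgeR 0.00917). The cytotoxic granule genes *Gzma* (21.7, 84.3 and 28.3 CPM in recovery against 1.11, 0.905 and 5 CPM in AOM/DSS), *Gzmb* (-3.10) and *Gzmk* (-3.60) and the NK genes *Nkg7* (-2.99) and *Klrd1* (-2.48) fell. *Cd3e* was not called (-1.82, adjusted p by edgeR 0.0781), and *Cd4* had too few reads to be tested (0.36, 0.347 and 0.35 CPM and 0.433, 0.733 and 0.741 CPM). Recovery replicate 2 held the highest level of *Gzma*, *Gzmb*, *Klrd1* and *Nkg7*. *Gzma* lost its call without recovery replicate 2 (edgeR adjusted p 0.0551), *Gzmb* without recovery replicates 1 or 2 or AOM/DSS replicate 2 (edgeR adjusted p 0.0519 to 0.0691), and *Gzmk* without AOM/DSS replicate 2 (edgeR adjusted p 0.0503). *Nkg7* lost its call without AOM/DSS replicate 2 (edgeR adjusted p 0.0578), and *Klrd1* without AOM/DSS replicate 2 (edgeR adjusted p 0.0876).

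Part of the macrophage genes rose, and 9 of 16 tested members were higher and 0 lower in AOM/DSS (median log2 fold change 1.55), with 5 without recovery replicate 3 and 11 without AOM/DSS replicate 1. *Lyz2*, their lysozyme, stood at 31.7, 43.6 and 17.9 CPM in recovery against 125, 108 and 177 CPM in AOM/DSS (log2 fold change 2.14 with SE 0.34, adjusted p by edgeR 0.00705). *C1qa*, *C1qb* and *C1qc*, complement components of tissue macrophages, had log2 fold changes of 1.69, 1.98 and 1.84, and *Mrc1*, *Trem2* and *Csf1r* had 2.33, 2.70 and 1.30. *Adgre1*, which encodes F4/80, was not called (1.34, adjusted p by edgeR 0.0888). Mast cell proteases rose from low levels, 3 of 4 tested, with *Cma1* at 0.12, 0 and 0 CPM in recovery against 16.7, 13.8 and 8.61 CPM in AOM/DSS (3 reads against 853, a ratio of 245, counting interval 83.5 to 1190.0) and *Mcpt1* (4.21, adjusted p by edgeR 0.0342) and *Mcpt2* (4.59, adjusted p by edgeR 0.0357) highest in AOM/DSS replicate 3, and the number higher was 1 without recovery replicates 1, 2 or 3 or AOM/DSS replicates 2 or 3 and 5 without AOM/DSS replicate 1, where more members passed the filter. *C1qb* lost its call without recovery replicate 3 (edgeR adjusted p 0.0596), *Trem2* without recovery replicates 1 or 3 or AOM/DSS replicate 2 (edgeR adjusted p 0.0582 to 0.0883), and *Csf1r* without recovery replicates 1, 2 or 3 or AOM/DSS replicates 2 or 3 (edgeR adjusted p 0.0626 to 0.133). *Mcpt1* lost its call without recovery replicates 1, 2 or 3 or AOM/DSS replicates 2 or 3 (edgeR adjusted p 0.0549 to 0.138), and *Mcpt2* without recovery replicates 1, 2 or 3 or AOM/DSS replicates 2 or 3 (edgeR adjusted p 0.0552 to 0.146).

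Antigen presentation genes moved in both directions. Of MHC class II genes, 3 of 14 tested members were higher and 6 lower in AOM/DSS (median log2 fold change -0.50), and 1 was called with the *Xist* covariate. The conventional chains of class II fell, *H2-Aa* at 261, 569.6 and 422 CPM in recovery against 212, 99.2 and 126 CPM in AOM/DSS (log2 fold change -1.52 with SE 0.37, adjusted p by edgeR 0.0324), *H2-Ab1* at 117, 207 and 119 CPM in recovery against 49.7, 34.5 and 49.5 CPM in AOM/DSS (log2 fold change -1.73 with SE 0.27, adjusted p by edgeR 0.00682) and *H2-Eb1* at 61.3, 113 and 81.7 CPM in recovery against 34.9, 33.8 and 34.8 CPM in AOM/DSS (log2 fold change -1.31 with SE 0.23, adjusted p by edgeR 0.00991), with the loading factors *H2-DMa* (-1.52) and *H2-DMb1* (-1.71). *H2-Ob*, at 0.4, 1.46 and 0.234 CPM in recovery against 10.7, 10.2 and 10.6 CPM in AOM/DSS (log2 fold change 3.96 with SE 0.61, adjusted p by edgeR 0.006), *H2-Oa* (3.31) and *H2-DMb2* (3.31) rose, and H2-O is the form that B cells make. *Ciita*, the class II activator, was not called (-0.39). *H2* genes have close relatives, so their reads are uncertain. Of the class I genes 3 of 21 were lower (median -0.35), *B2m* (-1.27, adjusted p by edgeR 0.0358), *H2-T23* (-1.38, adjusted p by edgeR 0.0413) and *H2-T3*, the thymus leukaemia antigen of gut epithelium, at 125, 204 and 135 CPM in recovery against 0.24, 0.172 and 0.0926 CPM in AOM/DSS (log2 fold change -9.80 with SE 0.38, adjusted p by edgeR 1.77e-05), and *Tap1* was not called (0.14), with 1 without recovery replicates 1, 2 or 3 or AOM/DSS replicate 2 and 3 without AOM/DSS replicate 1 lower. Interferon response genes gave 1 call of 36, *Rsad2* (-2.03, adjusted p by edgeR 0.0449), with a median of -0.27, and *Isg15* was not called (-1.13). *H2-Aa* lost its call without recovery replicates 2 or 3 or AOM/DSS replicates 2 or 3 (edgeR adjusted p 0.0654 to 0.109), *H2-DMb1* without recovery replicates 2 or 3 (edgeR adjusted p 0.0655 to 0.0747), and *H2-DMb2* without recovery replicates 1 or 3 (edgeR adjusted p 0.0545 to 0.0545). *B2m* lost its call without recovery replicates 1, 2 or 3 or AOM/DSS replicates 2 or 3 (edgeR adjusted p 0.0552 to 0.11), *H2-T23* without recovery replicates 1, 2 or 3 or AOM/DSS replicates 2 or 3 (edgeR adjusted p 0.0532 to 0.141), and *Rsad2* without recovery replicates 1, 2 or 3 or AOM/DSS replicates 2 or 3 (edgeR adjusted p 0.0609 to 0.16).

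Connective tissue genes rose in part. Of the fibroblast and collagen genes, 9 of 25 tested members were higher and 0 lower in AOM/DSS (median log2 fold change 0.80), with 3 without recovery replicate 3 and 11 without AOM/DSS replicate 3. *Fn1*, fibronectin, stood at 20.2, 33.8 and 20.5 CPM in recovery against 93.5, 186 and 130.0 CPM in AOM/DSS (log2 fold change 2.46 with SE 0.32, adjusted p by edgeR 0.003). *Grem1*, a BMP inhibitor of crypt-base fibroblasts, stood at 5.8, 1.39 and 4.85 CPM in recovery against 25.5, 55.7 and 26.8 CPM in AOM/DSS (log2 fold change 3.14 with SE 0.54, adjusted p by edgeR 0.00888), and *Col3a1* and *Col5a1* had 1.5 and 1.57, while *Col1a1* was not called (1.33, adjusted p by edgeR 0.0667). No smooth muscle gene of 18 was called (median 0.37). *Acta2* stood at 152, 225 and 121 CPM in recovery against 176, 326 and 63.7 CPM in AOM/DSS, and *Myh11* at 253, 407 and 190.3 CPM in recovery against 335, 644 and 108 CPM in AOM/DSS, so that the groups overlapped. Neuron and glia markers gave 4 lower of 17 (median -1.40), *Gfap* (-2.63, adjusted p by edgeR 0.0176), *Elavl4* (-1.73, adjusted p by edgeR 0.0456), *Tubb3* (-1.72, adjusted p by edgeR 0.0258) and *Uchl1* (-1.45, adjusted p by edgeR 0.0482), and the number was 0 without recovery replicate 2 and 5 without AOM/DSS replicate 3. Endothelial markers gave 1 of 14, *Prox1*, which is also a Wnt target, and *Pecam1* and *Cdh5* were not called (0.61 and 0.67). *Col5a1* lost its call without recovery replicates 2 or 3 or AOM/DSS replicate 2 (edgeR adjusted p 0.0589 to 0.0826), *Gfap* without recovery replicate 2 (edgeR adjusted p 0.0505), and *Elavl4* without recovery replicates 1, 2 or 3 or AOM/DSS replicates 1 or 2 (edgeR adjusted p 0.0662 to 0.125). *Tubb3* lost its call without recovery replicates 1, 2 or 3 or AOM/DSS replicate 1 (edgeR adjusted p 0.054 to 0.0792), and *Uchl1* without recovery replicates 1, 2 or 3 or AOM/DSS replicates 1 or 3 (edgeR adjusted p 0.0881 to 0.133).

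Adipocyte genes were lower in part, with 5 of 8 tested called and a median of -3.75 (1.37 with the *Hoxb13* covariate), and the number lower was 3 without AOM/DSS replicate 2 and 5 without AOM/DSS replicate 3. *Lpl*, lipoprotein lipase, stood at 54.7, 70.9 and 38.4 CPM in recovery against 4.91, 5.91 and 2.64 CPM in AOM/DSS (log2 fold change -3.60 with SE 0.36, adjusted p by edgeR 0.00106), *Cidec*, a lipid droplet protein, at 31.8, 25.8 and 23.6 CPM in recovery against 0.481, 1.94 and 1.85 CPM in AOM/DSS, and *Adipoq* at 14.8, 3.68 and 1.4 CPM in recovery against 0.337, 0.431 and 0.185 CPM in AOM/DSS (-4.36, adjusted p by edgeR 0.0194). *Pparg* (-1.93), *Lpl* and *Cidec* are also made by colonocytes, and *Plin1* (at most 0.881 CPM) was too low to be tested. Squamous markers gave 2 of 8 tested, *Krt13* (2 reads against 806, a ratio of 347, counting interval 95.8 to 2871.3) and *Krt15* (3.63, adjusted p by edgeR 0.0336), and *Krt5* was near 0 in every library (at most 0.302 CPM). The squamous number was 0 without recovery replicates 1, 2 or 3 and 6 without AOM/DSS replicate 1. Pancreas markers had 3 tested of 14, with *Cela1*, an elastase also made outside the pancreas, higher (2.30, adjusted p by edgeR 0.0124) and *Iapp* lower, and *Ins2* and *Amy2a5* were at 0 in all 6 libraries. *Pnliprp1*, a pancreatic lipase relative, had the largest fitted rise of all named genes. It stood at 0.04, 0 and 0 CPM in recovery against 1.88, 14.7 and 261 CPM in AOM/DSS, so that AOM/DSS replicate 3 held most of its reads, with 1 read in recovery against 6006, a ratio of 5173.5 (exact 95% counting interval 928 to 204375). Whether cells of these types were carried over into some libraries was not tested. *Adipoq* lost its call without AOM/DSS replicate 2 (edgeR adjusted p 0.0663), *Krt13* without recovery replicates 1, 2 or 3 (edgeR adjusted p 0.0691 to 0.0748), and *Krt15* without recovery replicates 1, 2 or 3 or AOM/DSS replicates 2 or 3 (edgeR adjusted p 0.0505 to 0.128). *Cela1* lost its call without recovery replicates 1 or 3 (edgeR adjusted p 0.059 to 0.0628), and *Pnliprp1* without recovery replicates 1, 2 or 3 (edgeR adjusted p 0.105 to 0.166).

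Other genes with large rises included *Tgm3*, a transglutaminase of barrier epithelia, at 0.28, 0.208 and 0.234 CPM in recovery against 514, 438 and 76.5 CPM in AOM/DSS (log2 fold change 10.41 with SE 0.92, adjusted p by edgeR 0.000593), and *Tmprss13*, a membrane serine protease whose gene overlaps one on the other strand and is uncertain, which had no reads in recovery and 1035 in AOM/DSS, at least 297-fold higher. *Mettl7a3*, at 0.04, 0.0695 and 0 CPM in recovery against 10.3, 18.9 and 30.3 CPM in AOM/DSS, has close relatives and is uncertain. It had 2 reads against 1309, a ratio of 564 (exact 95% counting interval 155.8 to 4660.2).

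Of 32 genes of junctions, growth, survival and inflammation, a list put together from the study's topics with results of these data known, 30 were tested, 3 were higher and 5 lower. The number higher was 0 without recovery replicates 1 or 3 or AOM/DSS replicate 2 and 5 without AOM/DSS replicate 1, and the number lower was 0 without AOM/DSS replicate 2 and 5 without AOM/DSS replicate 3. *Myc*, *Tnf* and *Stat3* were higher, and the genes lower included *Cldn2*, *Cldn15*, *Krt20* and *Muc2*. Genes of junctions, signalling and the cell cycle that were not called had log2 fold changes between -1.0 (*Ereg*) and 4.01 (*Il1b*), among them *Cdh1* (0.56), *Ctnnb1* (-0.03), *Ccnd1* (0.74), *Nfkb1* (0.48), *Rela* (0.70) and *Egfr* (0.38).

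The same comparison was made in *Cldn2*KO mice, which carry a deletion of claudin-2, to see where WT differed. The 12 libraries of both genotypes were fitted together, with no library shared between the comparisons. In *Cldn2*KO mice edgeR called 2873 of 16605 genes, 17.3% (1432 higher and 1441 lower). Of the 2322 WT calls 2298 had the same sign there and 1660 were called in the same direction, against the same sign in 77.3% of all genes. The *Cldn2*KO recovery libraries held *Hoxb13* near 0 as well (at most 0.371 CPM, against 312 to 392 CPM in *Cldn2*KO AOM/DSS). The difference itself was called for 2 genes, 0.012% of 16605, and chance would give 830.2 genes an unadjusted p under 0.05, where 582 had one. Both encode chains of MHC class II molecules. *H2-Aa*, with levels here scaled over all 18 libraries, stood at 265, 588 and 428 CPM in WT recovery against 213, 100.7 and 129 CPM after AOM/DSS, against 9.64, 8.44 and 13.8 CPM in *Cldn2*KO recovery and 78, 70.5 and 54.7 CPM in *Cldn2*KO AOM/DSS. *H2-Eb1* stood at 62.3, 117 and 82.7 CPM in WT recovery against 35.1, 34.3 and 35.5 CPM after AOM/DSS, against 2.36, 3.39 and 6.64 CPM in *Cldn2*KO recovery and 22.6, 19 and 16 CPM in *Cldn2*KO AOM/DSS. The *Cldn2*KO recovery libraries were the lowest of the 4 groups in both genes. WT minus *Cldn2*KO, the log2 fold changes differed by -4.20 (SE 0.48, edgeR adjusted p 0.0233) and -3.52 (SE 0.46, edgeR adjusted p 0.0453). In WT both genes fell from recovery to AOM/DSS, and in *Cldn2*KO both rose (2.69, edgeR adjusted p 0.000291, and 2.23, edgeR adjusted p 0.000795). The count ranged from 0 to 5 when any 1 of the 12 libraries was left out, with 5 without *Cldn2*KO recovery replicate 3, 2 without WT recovery replicate 1, 1 without WT AOM/DSS replicate 1 or *Cldn2*KO AOM/DSS replicate 3, and 0 without any of the others. DESeq2 called 15.

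**Figure D5:**
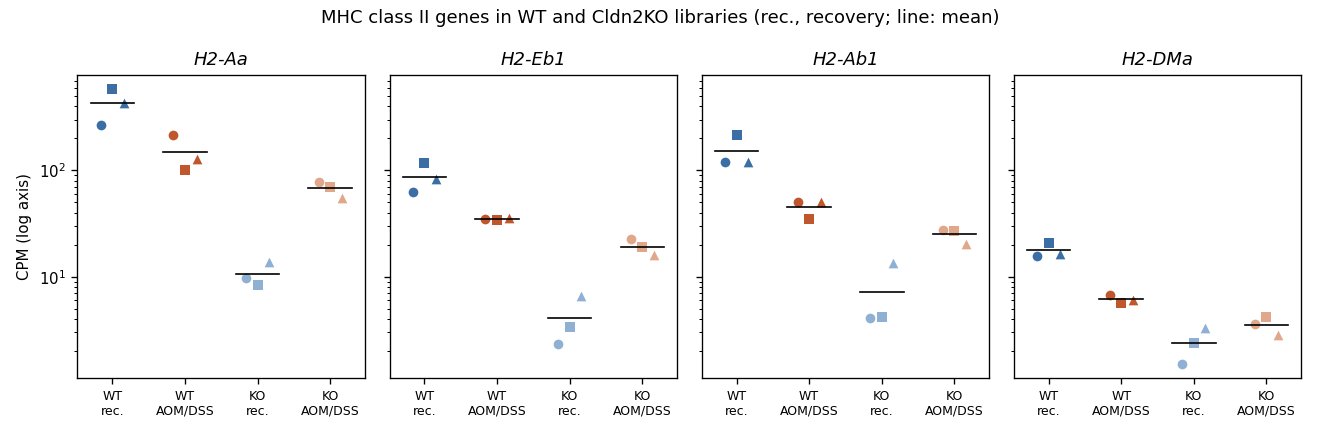
Level of 4 MHC class II genes in each library of WT and *Cldn2*KO recovery and AOM/DSS colon, in CPM on a log axis with the group mean as a line (n = 3 each). By group mean WT recovery is highest and *Cldn2*KO recovery lowest in each panel, with the AOM/DSS groups between them, as for *H2-Aa* with 265 to 588 CPM and 8.44 to 13.8 CPM.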

How the data were processed

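Total RNA from mouse colon was sequenced on an Illumina NovaSeq. The deposited values are raw read counts per gene, which the authors made with featureCounts (Subread) on GRCm38. The paper's methods name TopHat2 and the submitters' processing notes HISAT2 as aligner, and their settings, strand use and versions were not given in the sources used here. The counts of the lanes of a library were summed here (chi-square per degree of freedom between lanes 1.09 to 1.14 in the 6 libraries), and replicates differed beyond counting noise. Of 47729 genes, 47310 were matched to GENCODE M21 for names and positions.

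Genes passing filterByExpr were tested between 3 AOM/DSS and 3 recovery libraries with edgeR 4.0.16 (TMM, robust quasi-likelihood fit, Benjamini-Hochberg adjusted p under 0.05; common dispersion 0.100). The SE is the fold change over the square root of F. The interaction with genotype came from a fit of 12 libraries. Other fits used DESeq2 1.42.0, limma-voom 3.58.1, other scalings and filters, all 18 libraries, and covariates for *Xist* or *Hoxb13* above 10 CPM. Counting intervals and floors cover counting error only.

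Named were genes with the largest fold changes past the threshold, the members fixed for each list and genes from the study's topics. The members and lists were chosen with earlier results of these data known. Genes named with the *Hoxb13* covariate were chosen after their values were seen. The untreated groups entered only the fits of 18 libraries. Some members are not reported here.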

Additional observations from a re-analysis of the deposited data

Results flagged for a closer look

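*H2-Aa* drew attention because its difference between AOM/DSS and recovery was not the same in WT and *Cldn2*KO mice, by a test of that difference itself. It was -4.20 on the log2 scale, WT minus *Cldn2*KO (edgeR adjusted p 0.0233, 12 libraries). *H2-Eb1* was the other gene with such a difference, at -3.52 (edgeR adjusted p 0.0453). Each was lower in AOM/DSS in WT and higher in *Cldn2*KO. Of the 16605 genes in that fit 582 had an unadjusted p under 0.05. With all 18 libraries neither gene passed, and DESeq2 on the 12 libraries called 15 genes, among them both.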

How the results depend on the processing

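The count of called genes was 2322 (1106 higher and 1216 lower, 255 of them list members). It stayed within 1.5 times of that under relative log expression scaling, upper quartile scaling, no filter, a filter at 1 CPM and lane 1 alone. DESeq2 called 3545 (1697 higher and 1848 lower), limma-voom with sample weights 4673 (2372 and 2301, 396 list members), and edgeR with all 18 libraries 4124 (2029 and 2095), which a covariate for *Xist* in those libraries lowered to 2226 (1075 and 1151, 216 list members). Required to exceed 1.5-fold, 1166 genes passed (532 and 634, 169 list members), and at an adjusted p under 0.01, 815 did (344 and 471, 127 list members). The *Hoxb13* covariate left 63 (21 and 42, 11 list members). Leaving out 1 library gave 972 to 2452 (380 to 1340 higher, 592 to 1139 lower, 145 to 299 list members), lowest without recovery replicate 3. The mitochondrial share differed by -3.07 percentage points, and by -3.83 to -2.30 without single libraries. The genotype difference was called for 0 genes with all 18 libraries, for 15 by DESeq2, and for 0 to 5 without single libraries. The cause of these changes was not tested. No paired analysis was possible because the labels share no animal or batch number between the groups compared, and replicate numbers follow accession order.

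With the *Hoxb13* covariate 62 named genes had the opposite sign, and of these only *Anxa3* was called (edgeR adjusted p 0.00325), while the others had adjusted p 0.247 to 0.9999, many with values close to 0. The loss of the difference of *Hoxb13* itself is fixed by construction, since it defines the covariate. The 62 genes had log2 fold changes of *Abca12* 3.44, *Adipoq* 2.08, *Alpi* 1.01, *Anxa1* -1.41, *Anxa3* -2.74, *Aqp4* -1.35, *Atp12a* -2.35, *Atp2b1* 0.44, *Birc3* -0.34, *Car1* 0.52, *Cd8a* 1.11, *Cdx2* 0.40, *Cela1* -0.18, *Ces1g* 0.18. Of the rest, the values were *Cidec* 0.52, *Cldn14* -1.10, *Cldn15* 0.49, *Cma1* -2.85, *Cyp2c55* 3.85, *Cyp2c65* 2.06, *Cyp2c66* 1.03, *Cyp2c68* -2.68, *Cyp2d12* -2.50, *Egln3* -0.64, *Ephb3* -0.11, *Fabp2* 0.75, *Fxyd4* -2.67, *Gcnt3* 0.82. Further values were *Guca2a* 0.35, *Gzma* 0.84, *Gzmb* 0.62, *Gzmk* 0.27, *Hottip* -0.43, *Hoxa5* -1.37, *Hoxa6* -0.31, *Hoxb13* -0.43, *Hoxb3* 0.15, *Hoxb8* 0.90, *Hoxd8* 0.15, *Hsph1* 0.0655, *Iapp* 0.16. Also of opposite sign were *Il1rn* -1.80, *Insl5* -5.50, *Klrd1* 0.49, *Lpl* 1.16, *Mptx1* -0.45, *Muc1* -2.52, *Ndrg1* 1.30, *Nox1* -0.44, *Nts* 0.18, *Pla2g2a* -0.90, *Polr1b* -0.073, *Pparg* 0.60, *Reg3a* 2.24, *Slc15a1* -1.44. Others stood at *Slc51a* 1.93, *Slc8a1* 0.46, *Smoc2* -0.57, *Tmprss13* -0.066, *Tnfaip3* -0.26, *Trem2* -0.00713, *Ugt2b5* 0.78. These values rest on 1 untreated library that separates *Hoxb13* from treatment. Between 17.6 and 27.4 M reads per library, groups with 0 to 3 reads of a gene allow only bounds or ratios with wide counting intervals.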
